A study of Mus musculus with 10 samples.

Results

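The large subunit of the mitochondrial ribosome was followed through its nuclear genes in mouse germinal vesicle oocytes, the fully grown oocytes held in prophase of the first meiotic division. Members were the genes whose single symbol in the platform annotation is Mrpl followed by a number, with Mrpl23 left out, which gave 46 of the 18194 genes with a single symbol. Wild-type oocytes were measured on 5 arrays and CTCF-depleted oocytes on another 5, CTCF being the DNA-binding protein best known for insulator activity and for anchoring chromatin loops. The labels gave no strain or age, no means of depletion, and nothing on whether different animals gave the samples, so that p-values rest on a sample-to-sample spread that may be technical. RNA was labelled by a small-sample protocol with amplification, and the comparison asks which of these transcripts differ when CTCF is depleted.

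Mitochondria translate the few proteins encoded by their own genome on ribosomes of their own, and nearly all parts of these ribosomes except the RNA are encoded in the nucleus, made in the cytosol and imported. The large subunit joins amino acids at its peptidyl transferase centre and passes the new chain, usually a membrane subunit of the respiratory chain, through an exit tunnel that faces the inner membrane. Some of its proteins are relatives of bacterial ribosomal proteins and others occur only in mitochondria. The growing oocyte builds a large store of mitochondria that the early embryo inherits.

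All 46 genes were measurable. Their 103 probe sets, groups of short probes that each read 1 stretch of transcript, gave 90 that passed the filter on dim signals, at least 1 for each gene, and 13 that did not. The brightest probe set of each gene, which stands for the gene below, lay above the highest Bacillus control probe set of the array on all 10 arrays for all 46 genes. Mrpl30 and Mrpl53 were read only by probe sets shared with another gene and were not members. Signals are linear MAS5 values whose scale differs between probe sets, so levels are compared between arrays and not between genes. Each sample was measured in bulk, and fewer contributing cells and less of a transcript in each cell cannot be told apart.

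On their brightest probe sets, a few transcripts of the large subunit changed and most did not pass the test. The largest called change there was 1.38-fold, for Mrpl16. Dimmer probe sets of Mrpl19 and Mrpl9 were called at 1.69-fold and 1.48-fold. Of the 46 genes, 6 rose and 2 fell in depleted oocytes (limma, Benjamini-Hochberg adjusted p under 0.05 over all probe sets). That is 17.4% of the members, beside 16.4% of all 13811 genes tested, of which 7.26% rose and 9.12% fell, so the share of members called is close to the background. Mrpl16, Mrpl9, Mrpl43, Mrpl27, Mrpl17 and Mrpl39 rose, and Mrpl48 and Mrpl51 fell. The median log2 fold change, depleted over wild type, was 0.030 over the members and -0.017 over all genes tested. The median absolute log2 fold change was 0.13 over the members and 0.16 over all genes. Positive values were held by 27 members, or 58.7%, against 46.6% of all genes and 58.6% of 29 Mrps genes, most of them of the small subunit. In an alternative added after seeing the data, limited to genes of mean signal 100 or more, the median log2 fold changes were 0.030 over members and 0.0079 over all genes. With each array centred on its median, which moved the median of all genes by 0.086 on the log2 scale, 8 members were called higher and 1 lower, beside 1418 higher and 709 lower over all genes in place of 1003 and 1260.

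**Figure D1:**
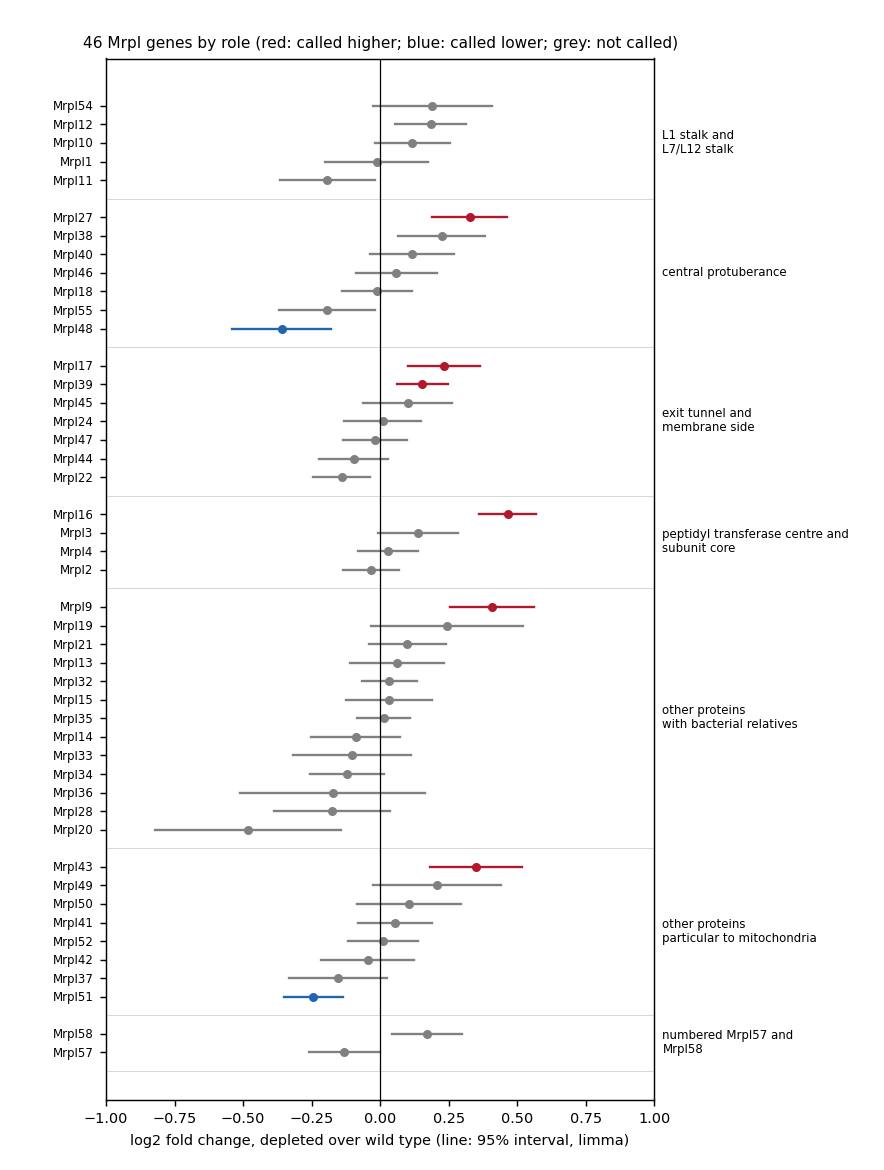
Log2 fold change of each of the 46 Mrpl genes, depleted over wild type, on its brightest probe set, with the 95% interval from limma, grouped by the place or kind of the protein. The 6 red genes were called higher and the 2 blue genes lower, and the estimates ran from -0.48 for Mrpl20, which was not called, to 0.47 for Mrpl16.

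Promoter stretches of 5 of the called genes are shown because CTCF binds DNA and because promoters of nuclear genes for mitochondrial proteins are known for sites of the activators NRF1, ETS-family factors and YY1. Each line gives the 200 bases before the transcription start in RefSeq, assembly GRCm38.p6, on the strand of the gene, with matches to any of the 4 motifs in capitals. Mrpl16 lies at chr19:11770215-11770414 on the plus strand, Mrpl9 at chr3:94443136-94443335 on the plus strand, Mrpl43 at chr19:45006443-45006642 on the minus strand, Mrpl17 at chr7:105811088-105811287 on the minus strand and Mrpl51 at chr6:125192000-125192199 on the plus strand.
Mrpl16: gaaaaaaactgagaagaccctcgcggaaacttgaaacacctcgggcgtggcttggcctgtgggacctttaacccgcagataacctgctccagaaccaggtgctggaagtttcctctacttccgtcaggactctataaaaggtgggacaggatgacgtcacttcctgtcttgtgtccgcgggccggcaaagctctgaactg
Mrpl9: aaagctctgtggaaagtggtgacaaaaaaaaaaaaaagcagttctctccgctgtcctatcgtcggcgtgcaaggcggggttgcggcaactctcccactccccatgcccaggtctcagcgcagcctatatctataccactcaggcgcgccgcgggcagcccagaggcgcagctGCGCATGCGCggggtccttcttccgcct
Mrpl43: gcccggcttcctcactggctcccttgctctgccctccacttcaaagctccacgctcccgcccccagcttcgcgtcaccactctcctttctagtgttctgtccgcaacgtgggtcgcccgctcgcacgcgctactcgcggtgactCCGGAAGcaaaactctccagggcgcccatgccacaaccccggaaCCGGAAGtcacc
Mrpl17: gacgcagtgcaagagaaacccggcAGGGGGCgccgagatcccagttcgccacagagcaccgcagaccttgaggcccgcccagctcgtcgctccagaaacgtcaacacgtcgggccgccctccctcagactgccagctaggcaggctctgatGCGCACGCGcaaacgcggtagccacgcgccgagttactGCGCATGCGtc
Mrpl51: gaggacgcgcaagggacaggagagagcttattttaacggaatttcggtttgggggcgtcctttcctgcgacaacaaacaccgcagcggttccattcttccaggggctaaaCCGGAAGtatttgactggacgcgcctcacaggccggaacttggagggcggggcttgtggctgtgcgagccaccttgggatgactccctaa

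The motifs searched on both strands were GCGCANGCG for NRF1, CCGGAAG for ETS factors, AAGATGGCG for YY1 and AGGGGGC for the core of the CTCF motif, and the NRF1 letters are nearly palindromic, so that matches can overlap each other. Windows from 250 bases before to 50 after the start were found for 40 members. Mrpl4, Mrpl13, Mrpl15, Mrpl19, Mrpl38 and Mrpl54 had none in the table. NRF1 letters stood in 11 of the 40 members (27.5%) against 7.03% of 27025 genes with a window, ETS letters in 14 (35.0%) against 9.93%, and YY1 letters in 4 against 1.64%. The CTCF letters stood in 3 members (7.5%), against 11.9% of all genes with a window. Unlike the members, the genes with a window included non-coding genes and genes not tested on the arrays. The shares among tested coding genes were not computed. Among the 8 called genes NRF1 letters were found for Mrpl9, Mrpl17 and Mrpl39, ETS letters for Mrpl17, Mrpl27, Mrpl43, Mrpl48 and Mrpl51, and CTCF letters for Mrpl17. The ETS letters of Mrpl17 lay in the longer window but not wholly within the 200 bases shown above. A gene with several annotated starts counted as holding a motif if any of its windows did, and the ETS letters of Mrpl48 stood at 1 of its 4 starts. Mrpl2, with 3 windows, was the other such member and matched none of the motifs. Mrpl16, the member with the smallest adjusted p, matched none of the 4 motifs in its window. Of the 32 other members with a window, 8 held NRF1 letters, 9 ETS letters, 4 YY1 letters and 2 CTCF letters. A match is a description of letters and not a bound site. Only these exact letters were searched, so a window without a match may hold other forms of the sites.

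Around the peptidyl transferase centre and the core of the subunit, 1 of 4 genes changed. Mrpl16, whose bacterial relative sits beside the tRNA at the catalytic centre, gave signals of 813, 786, 795, 856 and 800 on wild-type replicates 1 to 5 and of 1104, 1157, 1068, 1093 and 1173 on depleted replicates 1 to 5. Every depleted array lay above every wild-type array, and the gap between the groups was wider than the range within either. The mean was 810 ± 27.4 in wild-type and 1119 ± 44.3 in depleted oocytes (SD, n = 5), and the log2 fold change was 0.47 ± 0.05 (SE; adjusted p = 6.4e-06 by limma). The two-sided exact permutation test gave p = 0.00794, its lowest possible value with 5 arrays against 5. Mrpl2, Mrpl3 and Mrpl4, which fold into the core close to the catalytic RNA, had log2 fold changes of -0.033, 0.14 and 0.029, and none was called. The other tested probe sets of Mrpl3, at wild-type means of 176, 77.2 and 7.82 against 733, gave 0.082, -0.24 and -0.78, none called. The dimmest of them lay above the Bacillus controls on only 2 wild-type and 0 depleted arrays. The sign for this gene thus differed between probe sets of unlike signal.

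**Figure D2:**
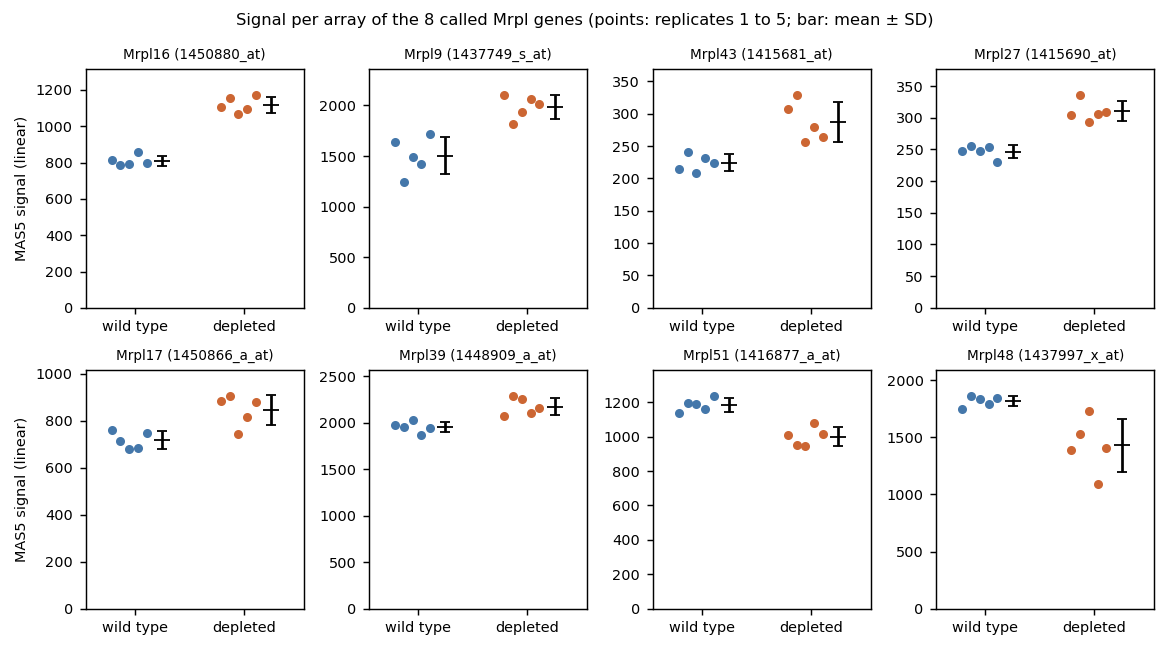
MAS5 signal on a linear axis from 0 for the 8 called Mrpl genes, each point an array (wild-type or depleted replicates 1 to 5, left to right) and each bar the mean ± SD of 5. Groups do not overlap for Mrpl16, Mrpl9, Mrpl43, Mrpl27, Mrpl39, Mrpl51 and Mrpl48, whereas the lowest depleted array of Mrpl17 lies within the wild-type range.

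Mrpl9 was the only member with 3 called probe sets, all of them higher. It encodes a relative of a bacterial protein at the base of a stalk of the large subunit. Its brightest probe set gave 1634, 1248, 1495, 1422 and 1714 in wild type and 2104, 1812, 1932, 2062 and 2013 in depleted oocytes. The wild-type arrays were spread more widely than the depleted ones, and the groups did not overlap. The means were 1503 ± 182 and 1984 ± 116 (SD, n = 5), and the log2 fold change was 0.41 ± 0.07 (SE; adjusted p = 0.00111 by limma). The second probe set, with 1287, 1081, 1171, 1179 and 1232 in wild type and 1739, 1890, 1504, 1575 and 1498 in depleted oocytes, had a log2 fold change of 0.46 ± 0.07 and again no overlap. The dimmest gave 0.56 ± 0.16 at a wild-type mean of 43.4, with overlapping groups, and was not called without any 1 of 6 arrays (wild-type replicates 2, 3 or 4, or depleted replicates 1, 2 or 3). The other 12 genes with bacterial relatives outside the named sites included no call on their brightest probe sets. Their log2 fold changes ran from -0.48 for Mrpl20 to 0.24 for Mrpl19.

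Mrpl20 and Mrpl19 were the largest uncalled differences. Mrpl20, a relative of a bacterial assembly protein of the large subunit, gave 95.8, 98, 103, 67.9 and 82.6 in wild type and 66.5, 50.1, 45.5, 75.1 and 84.6 in depleted oocytes. The groups overlapped, and the log2 fold change was -0.48 ± 0.16 (SE; adjusted p = 0.0609 by limma). It was called lower without depleted replicate 5 or wild-type replicate 4. Mrpl19, the dimmest member, had a log2 fold change of 0.24 ± 0.13 on its brightest probe set, with 27.8, 33.0, 25.3, 27.7 and 26.1 in wild type and 37.9, 32.6, 29.3, 34.6 and 33.4 in depleted oocytes. A dimmer probe set was called, with 10.4, 9.60, 10.7, 13.0 and 10.6 in wild type against 20.8, 20.7, 14.9, 23.7 and 21.1, without overlap, a log2 fold change of 0.76 ± 0.18. The remaining Mrpl19 probe sets gave -0.22 and 0.74 and were not called. Mrpl35, one of the 3 members with the highest signals, had a mean of 1901 ± 84.4 in wild type and 1918 ± 72.4 in depleted oocytes (SD, n = 5), with a 95% interval of -0.083 to 0.11 on the log2 scale.

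In the central protuberance, the crest of the subunit that contacts the small subunit and the tRNAs, 1 gene rose and 1 fell among 7. Mrpl27, whose bacterial relative reaches towards the catalytic centre, gave 247, 255, 248, 253 and 230 in wild type and 305, 336, 294, 306 and 309 in depleted oocytes. All depleted arrays were higher, and the log2 fold change was 0.33 ± 0.06 (SE; adjusted p = 0.00263 by limma). Its other tested probe set, at a wild-type mean of only 15.1, gave -0.17, and the mean over both probe sets was not called. Mrpl48 gave 1747, 1862, 1830, 1794 and 1846 in wild type and 1392, 1525, 1730, 1093 and 1409 in depleted oocytes. Depleted replicate 3 lay just under the lowest wild-type array, and depleted replicate 4 was far lower than the rest. The log2 fold change was -0.36 ± 0.09 (adjusted p = 0.00959), but the second probe set, nearly as bright at 1269 ± 117 against 1193 ± 173 (SD, n = 5), gave -0.095 and was not called. Mrpl48 was not called either when the variance was modelled without an intensity trend.

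The other 5 genes of the protuberance were not called. Mrpl38 had a log2 fold change of 0.22 on its brightest probe set, with 243, 229, 250, 237 and 251 in wild type against 303, 322, 276, 270 and 250. Only depleted replicate 5 fell within the wild-type range, and without that array Mrpl38 was called higher. The other Mrpl38 probe sets were dimmer, at wild-type means of 39.2 and 15.5 against 242. They gave -0.39, without overlap of the groups, and -0.12. In the main fit with all arrays none of the Mrpl38 probe sets was called, so a difference in direction along the transcript was not established. The brightest was called higher with median centring, with the filter at the 60th percentile, and among genes of mean signal 100 or more. Mrpl40, Mrpl46, Mrpl18 and Mrpl55 had 0.12, 0.060, -0.013 and -0.19.

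**Figure D3:**
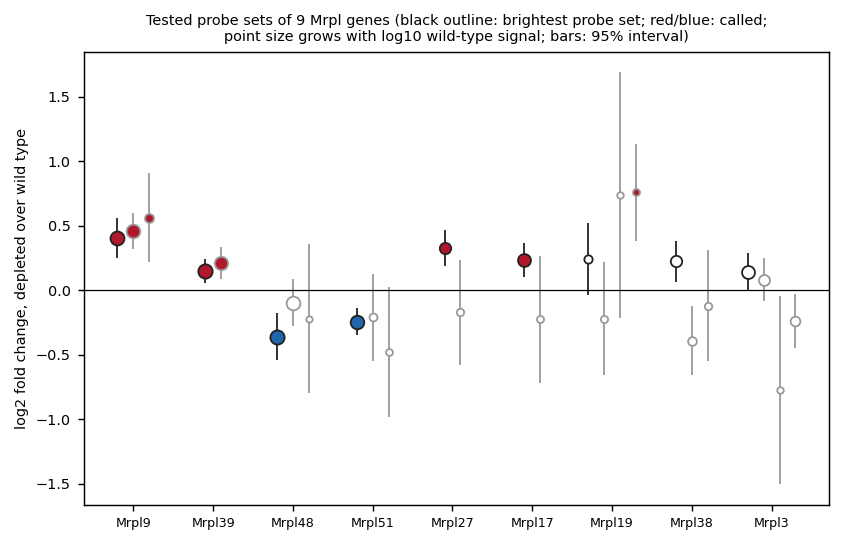
Log2 fold change with its 95% interval for every tested probe set of 9 Mrpl genes, where point size grows with the log10 of the wild-type signal, a black outline marks the brightest probe set and filled points were called. The probe sets of Mrpl9 and Mrpl39 lie on the same side and were all called, whereas those of Mrpl27, Mrpl17, Mrpl19, Mrpl38 and Mrpl3 lie on both sides of 0.

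At the exit tunnel and the side facing the membrane, 2 of 7 genes rose, both by little. Mrpl17 gave 762, 715, 679, 686 and 748 in wild type and 882, 906, 745, 817 and 880 in depleted oocytes. Depleted replicate 3 lay inside the wild-type range and the other 4 above it. The log2 fold change was 0.23 ± 0.06 (SE; adjusted p = 0.0187 by limma), and it was not called without wild-type replicate 3 or wild-type replicate 4, nor as a mean with its dim second probe set, where it was 0.0043. Mrpl39, which resembles a tRNA synthetase, gave 1976, 1952, 2027, 1866 and 1948 against 2067, 2289, 2252, 2104 and 2157. The groups did not overlap, but the change was small, 0.15 ± 0.04 (adjusted p = 0.029), and it was lost without any 1 of 6 arrays: wild-type replicates 2, 4 or 5, or depleted replicates 2, 3 or 5. The second Mrpl39 probe set gave 0.21 ± 0.06 and was also called, though not without any 1 of 5 arrays (wild-type replicates 1, 3 or 4, or depleted replicates 2 or 4).

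Mrpl22, which lines the exit tunnel and had the highest signal of the members, gave 2776, 2603, 2643, 2715 and 2742 in wild type and 2431, 2766, 2395, 2322 and 2339 in depleted oocytes. Of the depleted arrays, 4 lay below all wild-type arrays and replicate 2 above all but the highest of them. Its log2 fold change of -0.14 ± 0.05 was not called with all arrays, and was -0.18 ± 0.04 and called without depleted replicate 2. Mrpl24 and Mrpl47, at the mouth of the tunnel, had 0.0096 and -0.019, Mrpl44, a protein with an RNase III fold, -0.097, and Mrpl45, which anchors the subunit to the inner membrane, 0.10.

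None of the 5 stalk proteins was called. Mrpl12, the flexible stalk protein that recruits translation factors, gave 1065, 1005, 967, 1034 and 923 in wild type and 1062, 1301, 1070, 1135 and 1117 in depleted oocytes. All but 1 depleted array exceeded the highest wild-type value, and the log2 fold change of 0.18 ± 0.06 had an adjusted p of 0.0601 (limma, Benjamini-Hochberg). Mrpl12 was called higher with median centring, with the filter at the 60th percentile, and among genes of mean signal 100 or more. It was also called higher in the fit of means over probe sets. Without depleted replicate 1, Mrpl12 was called higher and Mrpl11 lower. Mrpl10 and Mrpl11, which form the base of that stalk, had 0.12 and -0.19, and Mrpl1 of the opposite stalk -0.013. Mrpl54 had 0.19.

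Among 8 further proteins that occur only in mitochondrial ribosomes, 1 rose and 1 fell. Mrpl43 gave 215, 241, 209, 232 and 224 in wild type and 307, 329, 256, 279 and 264 in depleted oocytes, with no overlap. The log2 fold change was 0.35 ± 0.08 (SE; adjusted p = 0.0073 by limma). Mrpl51 gave 1138, 1195, 1190, 1158 and 1237 in wild type and 1010, 954, 946, 1079 and 1014 in depleted oocytes. Every depleted array was lower, with a log2 fold change of -0.24 ± 0.05 (adjusted p = 0.00372), and its dimmer probe sets gave -0.21 and -0.48, not called. With arrays centred on their medians Mrpl51 had -0.16 and was not called. Mrpl49, among the dimmest members at 84.8 ± 11.95 in wild type and 97.97 ± 10.5 in depleted oocytes (SD, n = 5), had 0.21 and was not called. Mrpl37, Mrpl41, Mrpl42, Mrpl50 and Mrpl52 had -0.15, 0.053, -0.045, 0.11 and 0.011. Mrpl58, a hydrolase that frees chains from stalled ribosomes, had 0.17, and Mrpl57 had -0.13, neither of them called.

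For the 38 uncalled members, the 95% intervals on the brightest probe set reached -0.82 for Mrpl20 and otherwise lay between -0.51 for Mrpl36 and 0.52 for Mrpl19 on the log2 scale. These intervals describe 1 probe set each and do not limit the gene, since the called dimmer probe set of Mrpl19 had an interval of 0.39 to 1.14. Of 25 members with several tested probe sets, 13 had the same sign on all of them. Counted singly, 10 of the 90 tested probe sets were higher and 2 lower, beside 5.48% and 7.12% of all 27022 probe sets. Groups did not overlap for 7 members, 5 higher and 2 lower, beside 14.2% of all genes, 6.17% higher and 8.05% lower. In an alternative added after seeing the data, which kept genes of mean signal 100 or more, 8 of 40 members were called higher and 2 lower, beside 24.2% of 7035 genes called, 12.2% higher and 12% lower.

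Depleted replicate 2 stood apart from the other depleted arrays over the members. It had the highest depleted signal for 25 of the 46 genes, with a median of 0.081 above the group mean on the log2 scale, whereas over all genes tested its median was -0.0089. Depleted replicate 3 was lowest for 16 members, with a median of -0.063, against 0.019 over all genes tested. Over all probe sets without controls, depleted replicate 2 had the lowest median log2 signal of all arrays, 3.49, and replicate 3 the highest depleted one, 3.71. The members are bright, with a median wild-type signal of 633 against 108 over all genes tested. The part of signal level in these shifts was not tested. Among wild-type arrays, replicate 1 was highest for 18 members, with a median of 0.029. Depleted replicate 2 also had the lowest 3-prime to 5-prime ratio of the Actb and Gapdh control probe sets, a measure of RNA integrity and labelling, 2.58 on the log2 scale against 2.75 to 2.93 on the other depleted arrays and 2.77 to 3.07 on wild-type arrays. Without depleted replicate 2, 5 members were called higher and 4 lower, with Mrpl39 lost and Mrpl22 and Mrpl28 added to the falls. With the ratio as a covariate, 4 rose and 2 fell, without Mrpl17 and Mrpl39.

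**Figure D4:**
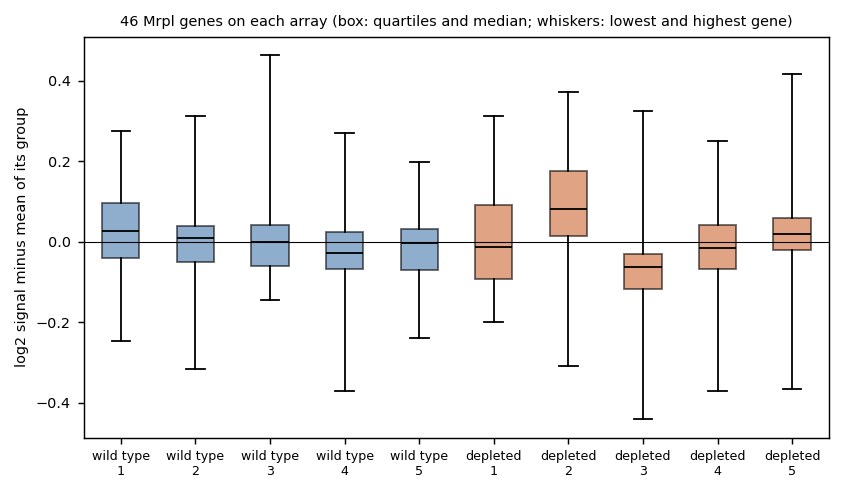
Log2 signal of the 46 Mrpl genes on each array, minus the mean of the gene in its own group, with boxes for the quartiles and whiskers to the lowest and highest gene. The box of depleted replicate 2 lies above 0, with a median of 0.081, and that of depleted replicate 3 below it, with a median of -0.063.

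The labels were checked on Ctcf and on cell markers. Ctcf fell from 1001 ± 76.0 to 36.3 ± 33.7 (SD, n = 5) on its brighter probe set, with depleted replicate 5 at 95.8 and the others at most 29.3. All 10 oocyte markers lay above the Bacillus controls on every array and none was called, and their summed signal was 54080 to 60000 in wild type and 50470 to 58610 in depleted oocytes. Of 10 granulosa and cumulus markers on the array 8 lay above the controls on every array and 2 were called higher, with sums of 650 to 1128 in wild type and 714 to 876 in depleted oocytes. Of 9 theca and stroma markers 1 lay above the controls on every array, with sums of 83.5 to 93.6 and 65.6 to 89.4. Of 9 blood, immune and endothelial markers 5 did, with sums of 207 to 248 and 212 to 253. The part of these cells in the members' values was not tested.

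Some genes of the family start near a neighbour on the other strand. By RefSeq annotation, 18 of the 40 members with a window had a gene on the opposite strand that started within 1000 bases. These neighbours ran the other way, and the start of Rab6a overlapped that of Mrpl48. The share of all genes with such a neighbour was not computed. Of the 16 partners that were tested, 2 were called (12.5%, beside 16.4% of all genes), both higher: Twnk beside Mrpl43 and Ska3 beside Mrpl57. Member and partner had the same sign in 10 of the 16 pairs, and both were called in 1. These partners were named after their values were seen. Twnk, the helicase that unwinds mitochondrial DNA, starts 116 bases from Mrpl43 and gave 289, 259, 279, 286 and 264 in wild type and 414, 369, 351, 342 and 360 in depleted oocytes. All depleted arrays were higher, with a log2 fold change of 0.41 ± 0.07 (SE; adjusted p = 0.000629 by limma), beside 0.35 for Mrpl43. Ska3, of the kinetochore, had 0.29 ± 0.07 while Mrpl57 had -0.13. Eme1 beside Mrpl27, Rab6a beside Mrpl48 and Ncapd2 beside Mrpl51 had 0.078, 0.058 and 0.020 and were not called.

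**Figure D5:**
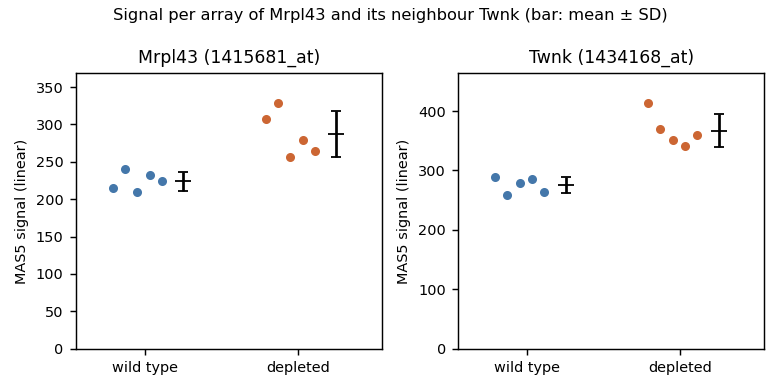
MAS5 signal on a linear axis from 0 of Mrpl43 and of Twnk, which start 116 bases apart on opposite strands, with a point for each array and the mean ± SD of 5. The depleted arrays lie above all wild-type arrays for both genes.

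Of 3 further large subunit proteins under other symbols, Gadd45gip1, Mrps18a and Mrps30, 0 were called. Of 16 tested genes listed for assembly of the large subunit or modification of its RNA, 0 rose and 2 fell on their brightest probe sets. The list also held Mdn1, a factor of the cytosolic large subunit, which had 0.50 and was not called. A dimmer probe set of Trub2 was called higher at 0.38, whereas its brightest gave 0.030 and another -0.058, neither called. Dhx30, a helicase of mitochondrial RNA granules, gave 1465, 1499, 1586, 1457 and 1517 in wild type and 1113, 1065, 1191, 1104 and 972 in depleted oocytes. No array overlapped, and the log2 fold change was -0.47 ± 0.05 (SE; adjusted p = 1.92e-05 by limma), with -0.48 and -0.64 on the other tested probe sets, both called. Gtpbp10, a GTPase of large subunit assembly, had -0.38 ± 0.12 and lost its call without any 1 of 7 arrays (all but wild-type replicate 4 and depleted replicates 3 and 5). Its other tested probe set, at a wild-type mean of 119 against 324, gave -0.0795 and was not called.

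Among 15 genes of mitochondrial transcription and RNA handling, 2 rose and 1 fell. Polrmt, the mitochondrial RNA polymerase, had a log2 fold change of 0.26 ± 0.08, and the DNA-packaging factor Tfam 0.32 ± 0.10. Polrmt was not called without any 1 of 6 arrays (wild-type replicates 3, 4 or 5, or depleted replicates 1, 2 or 3), nor Tfam without any 1 of 9 (all but depleted replicate 2). Tfb1m, which methylates the RNA of the small subunit, had -0.30 ± 0.07, with 0.086 on its other probe set. Among 11 translation factors, 0 rose and 2 fell: elongation factor Gfm1 by 0.34 ± 0.07 and Tsfm, the exchange factor of the elongation factor Tufm, by 0.64 ± 0.14 on the log2 scale. Beside these groups stand the 16.4% of all genes called.

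Of 29 measured Mrps genes, most of them of the small subunit and Mrps18a and Mrps30 among them, 6 rose and 4 fell. That is 34.5% called, beside 16.4% of all genes and 17.4% of the Mrpl genes. The Mrps genes are bright, with a median wild-type signal of 527 against 108 over all genes tested. In the added alternative of mean signal 100 or more, 24.2% of genes were called. The Mrps share there was not computed. The 3 Mrps genes with the smallest adjusted p were Mrps2, Mrps16 and Mrps7. Mrps2 fell from 527 ± 33.3 to 205 ± 6.47 (SD, n = 5), Mrps16 rose from 555 ± 15.9 to 1212 ± 84.9, and Mrps7 rose from 614 ± 67.1 to 784.5 ± 76.3. The median log2 fold change was 0.023 over the Mrps genes and 0.030 over the Mrpl genes. The difference between the families was not tested.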

How the data were processed

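Total RNA of 5 wild-type and 5 CTCF-depleted oocyte samples was hybridised to single-colour arrays, and the deposited intensity values, 1 linear signal per probe set, were made by the authors with MAS5, per the submitters' processing notes; its version is not given in the sources used here. The trimmed mean signal was 150 on every array, so each array had been scaled. Groups and replicate numbers came from the titles. Of 45101 probe sets, 64 controls were left out. An offset of 2.47, the 25th percentile of the signals, was added before log2 was taken, so fold changes of dim genes are understated. Probe sets under the 40th percentile of mean log2 value (a signal of 5.13) were dropped, which left 27022. Groups were fitted in R 4.3.3 with limma 3.58.1 (lmFit, eBayes with trend). The p-values were adjusted by Benjamini-Hochberg over these 27022, and calls were made under 0.05. A gene was represented by its brightest tested probe set, a choice that leaves dimmer ones to be given beside it. Single values were compared by exact permutation tests. Precision is limited by the number of arrays. The fit was tested on simulated data.

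The members, gene lists and tests were chosen with earlier results of these data known. Named genes were members with a called probe set, the 3 brightest, the 3 dimmest, the 3 largest uncalled changes, called genes of related lists and the first 3 Mrps genes, and other members are given by value. Names came from the platform annotation, and promoters from RefSeq, GRCm38.p6. The array files name no genome build. Same-numbered arrays had deviations from their group means that correlated by 0.0024 to 0.051, so the numbers were not treated as pairs.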

Additional observations from a re-analysis of the deposited data

Results flagged for a closer look

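Within groups of 5 arrays, the highest or lowest array was set against the rest for the 46 genes and the called probe sets. Of 100 such groups 4 had an array farther from the others than the 95% limit of Dixon's ratio allows, and about 1 in 20 groups does so by chance. Mrpl42 read 323 on wild-type replicate 1 and 246 to 258 on the other wild-type arrays. Mrpl3 read 613 on wild-type replicate 4 and 739 to 779 on the others. Mrpl49 read 105 on wild-type replicate 2 and 75.3 to 83.6 on the others. Mrpl22 read 2766 on depleted replicate 2 and 2322 to 2431 on the other depleted arrays.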

How the results depend on the processing

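The count of members called higher stayed within 4 to 8 under 13 other settings and within 4 to 7 with single arrays left out. The count of members called lower was 1 with arrays centred on their medians and 1 without the intensity trend. It was 3 with a 60th percentile filter, with array weights, as the mean over probe sets and without depleted replicates 2 and 5. With single arrays left out it was 2 to 4, the 4 being without depleted replicate 2. The median log2 fold change was 0.12 with median centring, against a spread between arrays of 0.065 (SD). It was 0.0012 with the 3-prime to 5-prime covariate, -0.0019 as the mean over probe sets and -0.0051 without depleted replicates 2 and 5. Its sign thus depended on the processing. With single arrays left out the median ran from 0.012 to 0.042. Groups did not overlap for 7 to 9 members with single arrays left out, fewer arrays making this easier. With the replicate number as a block, 6 members were called higher and 2 lower, the same 8 genes; same-numbered arrays share only a number. Mrpl16, Mrpl43 and the brightest Mrpl9 probe set were called under all 13 settings and without any single array. Mrpl35, not called, turned sign to -0.0042 with the 3-prime to 5-prime covariate, to -0.018 without depleted replicates 2 and 5 (an alternative added after seeing the data), and lay between -0.0048 and 0.038 when each array in turn was dropped. Mrpl38 turned to -0.095 as the mean over its probe sets. The causes were not tested. Dim probe sets vary more, which limits Mrpl19, Mrpl20, Mrpl36 and Mrpl49.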

Other observations

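A dim Mrpl47 probe set that did not pass the filter read 2.88 ± 2.79 in wild type and 8.97 ± 1.57 in depleted oocytes (SD, n = 5), above the Bacillus controls on 0 wild-type and 3 depleted arrays. The brightest Mrpl47 probe set had a log2 fold change of -0.019. It was named after its values were seen, and its fit was not made.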
